A study of Homo sapiens with 12 samples.

Results

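The report covers 10 genes that encode collagen chains: COL1A1, COL4A1, COL4A2, COL5A1, COL5A2, COL6A1, COL6A2, COL6A3, COL12A1 and COL13A1. They were taken by gene symbol from the array's platform annotation, which gave them 33 probe sets, out of 19775 genes and 41091 probe sets with a single gene symbol. No probe set named a member beside another gene. The genes were picked with their differences from control in view, so those differences, and the calls made on them, are given as a description and with no p-value. Differences between the mixes come from the same arrays. Their adjusted p-values in the 10 genes are therefore a description too and no independent support. The array held 33 other collagen genes on 79 probe sets, which give the rest of the family beside the 10.

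RNA came from MDA-MB-231, a human breast cancer cell line of the triple-negative, mesenchymal kind. Cells were seeded sparsely on day 1 and transfected on day 2 with small interfering RNA (siRNA) at 33 nM. Medium with serum was renewed on day 3, and the cells were lysed on day 4. The 3 groups were a control siRNA, a first siRNA mix and a second siRNA mix against both YAP (gene YAP1) and TAZ (gene WWTR1), called mix 1 and mix 2. Each group had 4 replicate cultures, A to D, that the series text describes as plated, transfected and collected side by side. All groups therefore share 1 cell line, the transfection reagent and the days of handling, and p-values measure the spread between such parallel cultures. The 12 samples were read on Affymetrix U133 Plus 2.0 arrays, on which several probe sets can read the same gene. The values are on the log2 scale as the authors deposited them, so a difference of 1 is a doubling. Cultures were lysed whole, so fewer cells of a kind and less RNA per cell cannot be told apart. The number of arrays, not a read depth, limits the precision.

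Collagens are the main structural proteins of the extracellular matrix, and each molecule is a triple helix wound from chains that may come from different genes. Types I and V build banded fibrils, type IV forms the sheet-like network of basement membranes, and type VI forms beaded filaments between cells and fibrils. Type XII decorates fibril surfaces, and type XIII is a cell-surface collagen anchored by a transmembrane segment. YAP and TAZ are transcription coactivators held back by the Hippo pathway, and they reach DNA mainly through TEAD factors.

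The targeted genes followed the labels. The brightest YAP1 probe set had a mean of 11.16 ± 0.10 (SD, n = 4) in control, 8.15 ± 0.36 with mix 1 and 8.09 ± 0.10 with mix 2. The WWTR1 probe set had 11.40 ± 0.10, 9.06 ± 0.22 and 8.95 ± 0.12, and in neither gene did a knockdown array reach the control range. Array medians were 5.69 to 5.75 in control, 5.71 to 5.78 with mix 1 and 5.73 to 5.74 with mix 2. The 3′ minus 5′ difference of the GAPDH probe sets, a sign of RNA breakdown, was 0.34 to 0.45, 0.33 to 0.51 and 0.33 to 0.42. For ACTB it was 1.38 to 1.99, 1.61 to 2.24 and 1.36 to 1.83, a mean shift of 0.22 with mix 1 and -0.16 with mix 2 (exact two-sided permutation p = 0.314 and 0.343). Its part in the collagen differences was not tested. All 6 markers of the cell line (VIM, CD44, AXL, MSN, CAV1 and EGFR) were above the filter on dim probe sets, with a mean level of 12.86 to 12.93 per array in control, 12.48 to 12.64 with mix 1 and 12.79 to 12.85 with mix 2. Of 8 luminal epithelial markers 6 were above it, while CDH1 and FOXA1 were not, and the mean level of the 8 was 8.44 to 8.50, 8.62 to 8.72 and 8.72 to 8.86. Single markers did not move together. With mix 1 and mix 2, KRT19 differed from control by 1.35 and 0.84, and KRT8 by 0.505 and 0.40. EPCAM differed by -0.375 and 0.93, GATA3 by -0.47 and 0.065, KRT18 by 0.095 and 0.02, and ESR1 by -0.05 and -0.125. Of the cell-line markers AXL differed by -1.11 and -0.405, and VIM by 0.12 and 0.08.

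A probe set was tested when its mean over the 12 arrays was above 5.46 (log2), the 40th percentile. A gene was counted by its brightest probe set, the one with the highest mean over the 12 arrays. It counts as called when the adjusted p of limma's fit over all tested probe sets was below 0.05. Of the 33 collagen probe sets 23 passed the filter, and of the 10 genes 9 did. COL5A2 did not.

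Among the 9 tested genes, 7 were called higher and 1 lower under mix 1, and the same was true under mix 2. The genes higher than control under both mixes were COL1A1, COL4A1, COL4A2, COL5A1, COL6A1, COL6A3 and COL13A1. COL12A1 was lower under both, and COL6A2 was called under neither. Most genes on the array were also called: 66.4% of 13225 genes under mix 1 and 67.9% under mix 2. Because the members were chosen on these contrasts, nothing is read from the count beside that background. The median difference of the 9 genes was 1.00 under mix 1 and 0.61 under mix 2, beside 0.01 and 0.03 over all genes tested. With a size of at least 1 log2 required as well, 5 of the 9 genes were called under each mix and 0 between the mixes, beside 16.4%, 18.4% and 6.25% of all genes. By probe set, 18 and 17 of 23 were called against control, beside 65.0% and 66.2% of all probe sets. Both comparisons use the same 4 control arrays.

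**Figure D1:**
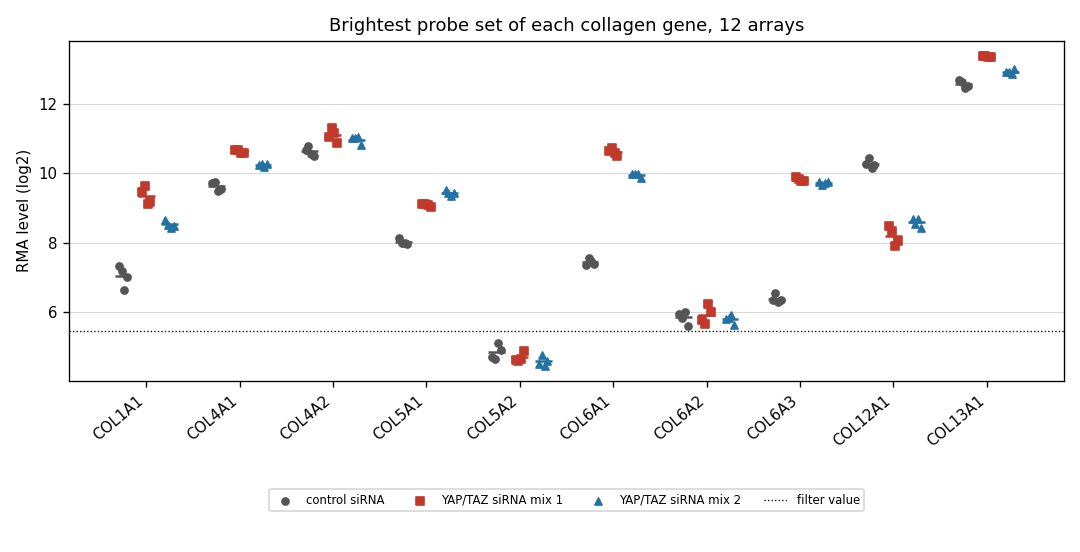
RMA level (log2, vertical axis) of the brightest probe set of each of the 10 collagen genes on the 12 arrays. Points are single arrays, short bars are group means of 4 arrays, and the dotted line is the filter value of 5.46. COL6A1 and COL6A3 show the widest gaps between control and both mixes. COL12A1 is the gene with every array of both mixes under its control arrays, and COL5A2 lies under the filter value in every group.

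The brightest probe sets of the type VI chains gave unlike readings. COL6A3, the large chain of the type VI filament, had control values of 6.35, 6.54, 6.28 and 6.36 for replicates A to D (probe set 201438_at, its only one). With mix 1 the values were 9.90, 9.82, 9.78 and 9.77, and with mix 2 they were 9.74, 9.65, 9.71 and 9.76. All 8 knockdown arrays lay far above the 4 control arrays, while the groups of the mixes nearly touched. The differences from control were 3.44 ± 0.07 (SE) with mix 1 and 3.33 ± 0.07 with mix 2, which are 10.8-fold and 10.1-fold. Of the 13225 genes, 28 and 37 had a larger positive difference, a rank that the choice of the members favours. Mix 2 minus mix 1 was -0.10 ± 0.07 (adjusted p = 0.212).

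COL6A1, another chain of the same filament, had 7.36, 7.57, 7.48 and 7.38 in control (213428_s_at). It had 10.63, 10.73, 10.59 and 10.50 with mix 1, and 9.99, 9.97, 9.97 and 9.87 with mix 2. The 3 groups were fully apart, with mix 1 highest. The difference from control was 8.97-fold with mix 1 and 5.67-fold with mix 2. Mix 2 minus mix 1 was -0.66 ± 0.07 on this probe set (limma adjusted p = 1.46e-06), a description as for the other members.

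COL6A2, the remaining chain of the filament, showed no such gap. Its brightest probe set (209156_s_at) had 5.94, 5.84, 6.0 and 5.61 in control. It had 5.76, 5.65, 6.24 and 6.01 with mix 1, and 5.79, 5.82, 5.93 and 5.64 with mix 2. The 3 groups overlapped, and every value lay close above the filter. Near that level the COL6A1 probe sets 212938_at and 212937_s_at also read little under mix 1 (0.17 and 0.18). A flat dim probe set thus does not show that COL6A2 was unlike COL6A1. The differences from control were 0.07 ± 0.12 and -0.05 ± 0.12. The other COL6A2 probe set (213290_at) was under the filter, with group means of 5.32, 5.36 and 5.26. In the RefSeq gene table COL6A1 and COL6A2 are neighbours on chromosome 21 with 0 protein-coding genes between them.

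The RefSeq promoter of COL6A3 is shown because this gene had the largest differences from control among the 10. The stretch is chr2:237414165-237414414 of GRCh38.p14, minus strand, the 250 bases before the start of transcription, read 5′ to 3′. It is in lower case throughout, since none of the 5 motifs searched was found in it. The motifs were searched on both strands and were the TEAD motif GGAATG, the AP-1 motif TGANTCA, the GC box GGGCGG, the CCAAT box CCAAT and the TATA box TATAAA.

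COL6A3 promoter: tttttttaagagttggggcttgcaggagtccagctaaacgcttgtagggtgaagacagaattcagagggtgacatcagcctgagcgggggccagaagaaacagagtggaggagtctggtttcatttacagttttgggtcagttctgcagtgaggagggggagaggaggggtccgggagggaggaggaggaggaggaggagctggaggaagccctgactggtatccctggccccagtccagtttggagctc

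Promoter windows were given for 7 of the 10 genes (COL4A1, COL4A2, COL5A1, COL6A2, COL6A3, COL12A1 and COL13A1). The TEAD motif was in 1 of the 7, COL12A1, and in 11.9% of the 35116 promoter windows of the table. The AP-1 motif was in 0 of the 7 and in 6.57% of all windows. The GC box was in 5 of the 7 and in 42.6% of all, the CCAAT box in 2 and in 32.0%, and the TATA box in 2 and in 10.7%. A match is a match of letters and does not show that a factor binds there.

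COL1A1 encodes the main chain of type I collagen, the fibril collagen of skin, bone and tendon. Its brightest probe set (1556499_s_at) had 7.34, 7.17, 6.63 and 7.02 in control. With mix 1 it had 9.46, 9.63, 9.10 and 9.17, and with mix 2 it had 8.66, 8.51, 8.43 and 8.49. The 3 groups did not overlap, and mix 1 was highest. It was above control by 2.30 ± 0.14 and 1.48 ± 0.14, or 4.92-fold and 2.79-fold. Mix 2 was 0.82 lower than mix 1 in log2 units (-0.82 ± 0.14, adjusted p = 0.000213).

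The other COL1A1 probe sets gave unlike readings. Probe set 202310_s_at had means of 5.20 in control, 6.56 with mix 1 and 6.0 with mix 2. Its control arrays were under the filter value, so it passed only through the knockdown groups, and the text gives no difference for it. Probe sets 217430_x_at (-0.10 ± 0.13 and -0.05 ± 0.13) and 202312_s_at (0.06 ± 0.12 and 0.20 ± 0.12) had overlapping groups and were called under neither mix. Of these 217430_x_at was the brightest COL1A1 probe set in control, at 7.54 ± 0.20 against 7.04 ± 0.30 (SD, n = 4) for 1556499_s_at. A count of COL1A1 by the probe set brightest in control would thus show it as not called. The fifth, 202311_s_at, was under the filter at 3.05, 3.39 and 3.11. All of these names end in _s_at or _x_at, which on this platform marks probe sets that can bind more than 1 transcript.

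COL1A2, the partner chain of COL1A1 in type I collagen, was under the filter in all groups, with means of 4.77 ± 0.11 in control, 4.47 ± 0.10 with mix 1 and 4.79 ± 0.08 with mix 2 (SD, n = 4). COL3A1, which encodes the fibril collagen often found with type I, was also under it, with 4.44, 4.71 and 5.51. Both are among the 10 fibroblast markers checked, of which 3 were above the filter. Markers below it were COL1A2, COL3A1, DCN, LUM, PDGFRA, FAP and POSTN. The mean level of the 10 was 4.59 to 4.79 per array in control, 4.74 to 4.84 with mix 1 and 5.15 to 5.18 with mix 2. The markers did not move together. LUM, the fibril-binding proteoglycan lumican, had means of 3.19, 4.26 and 5.41, and PDGFRB had 5.90, 6.56 and 6.78. ACTA2 was lower with mix 1 and higher with mix 2 (6.04, 5.71 and 6.53), and THY1 was lower with mix 1 (5.99, 5.66 and 5.86). POSTN was at 3.29, 2.94 and 2.98, and the means of DCN, FAP and PDGFRA stayed within 0.15 of each other in each gene. The part of fibroblast-type RNA in the collagen differences was not tested.

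The type V chain COL5A1 helps to start fibrils and limits their width. Its brightest probe set (203325_s_at) had 8.13, 8.0, 7.98 and 7.97 in control, 9.12, 9.11, 9.09 and 9.03 with mix 1, and 9.51, 9.44, 9.34 and 9.42 with mix 2. The groups did not overlap, and here mix 2 was the highest. The differences from control were 1.07 ± 0.06 and 1.41 ± 0.06, and mix 2 minus mix 1 was 0.34 ± 0.06 (adjusted p = 0.000253).

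The remaining COL5A1 probe sets ordered the mixes the other way. On 212488_at the control arrays had 7.48, 7.51, 7.52 and 7.27, the mix 1 arrays 9.57, 9.72, 9.51 and 9.41, and the mix 2 arrays 8.33, 8.19, 8.28 and 7.99. Mix 1 was above mix 2 on every array there, with mix 2 minus mix 1 at -1.36 ± 0.09 (adjusted p = 1.67e-08). On 212489_at the differences from control were 1.96 and 1.59, and mix 2 minus mix 1 was -0.37 ± 0.11 (adjusted p = 0.00965). All 3 probe sets thus placed COL5A1 above control under both mixes and disagreed on which mix was higher.

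COL5A2, the chain that pairs with COL5A1 in most type V collagen, stayed under the filter. Its brighter probe set (221729_at) had means of 4.84 ± 0.22, 4.70 ± 0.13 and 4.58 ± 0.13 (SD, n = 4) in control, mix 1 and mix 2, with overlapping groups. The dimmer one (221730_at) had 3.89, 3.46 and 3.33, and its knockdown arrays lay under the control arrays. No direction is given for COL5A2, since both of its probe sets were under the filter.

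The type IV pair COL4A1 and COL4A2, which make up the common basement-membrane collagen, were both higher than control by smaller amounts. COL4A1 (211980_at) had 9.72, 9.76, 9.49 and 9.54 in control, 10.68, 10.67, 10.57 and 10.58 with mix 1, and 10.24, 10.27, 10.19 and 10.25 with mix 2. The 3 groups did not overlap. COL4A1 was 1.00 ± 0.07 and 0.61 ± 0.07 above control, with mix 2 minus mix 1 at -0.39 ± 0.07 (adjusted p = 0.000256). On the dimmer COL4A1 probe set (211981_at) the differences were 0.59 and 0.56, and the mixes were not called different (-0.03 ± 0.08, adjusted p = 0.758).

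COL4A2 (211964_at) had 10.68, 10.79, 10.54 and 10.50 in control, 11.03, 11.31, 11.17 and 10.88 with mix 1, and 11.00, 11.00, 11.03 and 10.81 with mix 2. Each knockdown array was above all control arrays, by as little as 0.02 for replicate D of mix 2, and the mixes overlapped. The differences from control were 0.47 ± 0.10 and 0.33 ± 0.10, the smallest among the 7 genes called higher under mix 1 and again under mix 2. Mix 2 minus mix 1 was -0.14 ± 0.10 (adjusted p = 0.251). The dimmer COL4A2 probe set (211966_at) was 0.36 above control with mix 1 and 0.12 with mix 2, where its groups overlapped and it was not called.

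COL4A1 and COL4A2 lie head to head on chromosome 13, with 127 bases from start to start and 0 protein-coding genes between them. The 126 bases between the starts, chr13:110307158-110307283 of GRCh38.p14, are shown because they lie upstream of both genes. They are read on the plus strand, toward COL4A2, and capitals mark a CCAAT box and a GC box.

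COL4A1 and COL4A2, stretch between the starts: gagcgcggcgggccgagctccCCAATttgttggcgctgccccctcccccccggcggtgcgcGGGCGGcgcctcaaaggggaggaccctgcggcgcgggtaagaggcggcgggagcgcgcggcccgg

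The CCAAT match began 105 bases and the GC box match 65 bases before the COL4A2 start. No TEAD or AP-1 match lay in the stretch.

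COL12A1 was the gene of the 10 that was called lower. It encodes the type XII collagen that bridges fibrils and the surrounding matrix. Its brightest probe set (225664_at) had 10.27, 10.45, 10.14 and 10.24 in control, 8.47, 8.34, 7.91 and 8.06 with mix 1, and 8.68, 8.55, 8.68 and 8.43 with mix 2. No knockdown array came within 1 log2 unit of the control arrays, and the mixes overlapped. The differences were -2.08 ± 0.11 and -1.69 ± 0.11, which left 23.7% and 31.0% of the control level. A more negative difference was seen in 145 and 458 of the 13225 genes, a rank that the choice of the members also favours. Mix 2 was 0.39 ± 0.11 above mix 1 (adjusted p = 0.00983).

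Among the other COL12A1 probe sets, 231766_s_at had differences of -1.40 ± 0.08 and -0.94 ± 0.08, and mix 2 was again above mix 1 (0.46 ± 0.08, adjusted p = 0.000242). Probe set 231879_at fell outside the test because its mean over all arrays was under the filter. Its control arrays were at 6.29, 6.16, 6.19 and 6.38, while its knockdown arrays ran from 4.16 to 4.77. The last pair, 234951_s_at and 233109_at, was dim in every group, with means of 3.43 to 4.40.

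The COL12A1 promoter is shown because it was the only window of the 7 with a TEAD match. It is chr6:75206054-75206303 of GRCh38.p14, minus strand, the 250 bases before the start, and capitals mark a GC box match (218 bases before the start) and then the TEAD match (167 bases before it).

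COL12A1 promoter: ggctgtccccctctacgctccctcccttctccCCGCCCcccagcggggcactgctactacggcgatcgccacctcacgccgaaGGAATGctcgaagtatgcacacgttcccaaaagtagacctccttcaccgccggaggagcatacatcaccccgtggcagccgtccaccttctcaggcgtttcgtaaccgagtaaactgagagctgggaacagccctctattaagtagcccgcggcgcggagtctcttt

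COL13A1, the transmembrane collagen, had 12.67, 12.62, 12.46 and 12.50 in control (211343_s_at). It had 13.37, 13.37, 13.33 and 13.33 with mix 1, and 12.92, 12.91, 12.85 and 12.99 with mix 2. The 3 groups did not overlap, and mix 1 was highest. The differences from control were 0.79 ± 0.06 and 0.36 ± 0.06, and mix 2 minus mix 1 was -0.43 ± 0.06 (adjusted p = 3.52e-05). Probe sets 211809_x_at (0.99 and 0.38) and 208535_x_at (0.89 and 0.43) gave the same order of the groups. Their mix 2 minus mix 1 differences were -0.61 (adjusted p = 6.7e-06) and -0.46 (adjusted p = 0.000153).

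**Figure D2:**
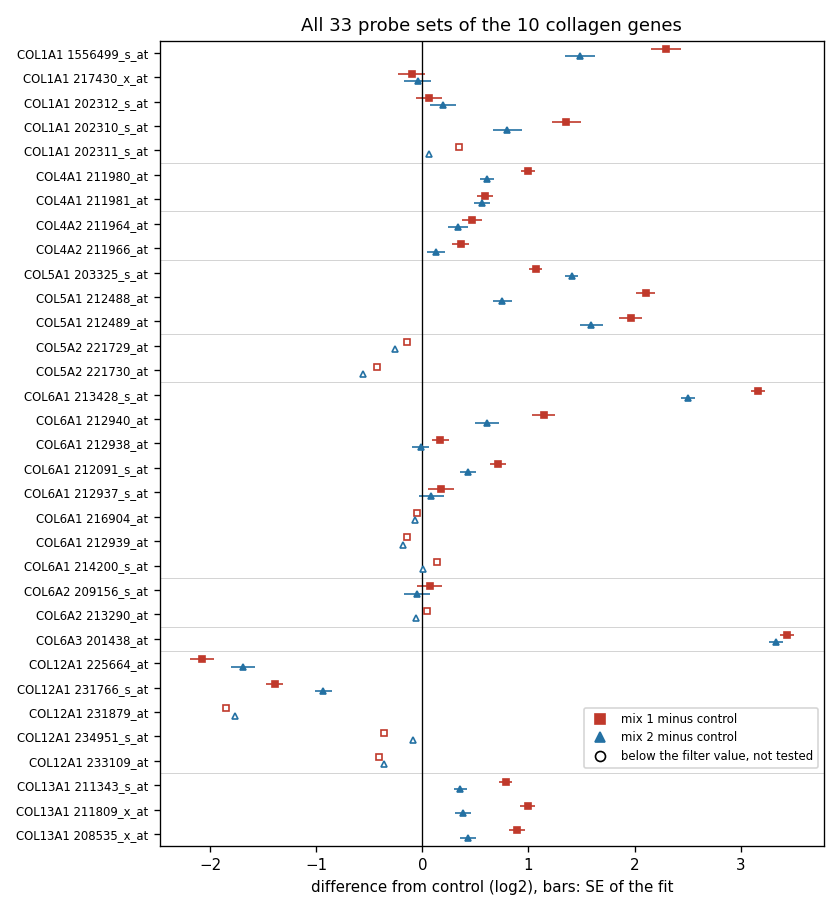
Difference from control (log2, horizontal axis) of all 33 probe sets of the 10 collagen genes under mix 1 (squares) and mix 2 (triangles), with the standard error of limma's fit as bars. Open symbols are probe sets under the filter, which were not tested. The COL6A1 probe sets range from 3.17 down to -0.15 under mix 1, while the 3 COL13A1 probe sets lie between 0.79 and 0.99.

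Probe sets of the same gene were compared directly. For each gene the change on every other probe set was set against the change on the brightest probe set, with an exact two-sided permutation test over 4 against 4 arrays. Its smallest possible p is 0.0286. Of 46 such comparisons 32 reached that p, which passed the adjusted threshold of 0.05. Among the 28 with both probe sets above the filter 20 did. These counts are a description, since the genes were picked on the same differences from control. The reference was also picked with the knockdown arrays included, which can favour a probe set that rose. In COL1A1 it had a control mean of 7.04, under the 7.54 of 217430_x_at. Comparisons outside the 28 involve probe sets under the filter, where a change is hard to read. The disagreements are therefore described by their sizes.

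The widest disagreements were in COL6A1, which had 8 probe sets. Beside the difference of 3.17 on 213428_s_at under mix 1, 212940_at had 1.14 and 212091_s_at had 0.71, and both were called. On 212938_at and 212937_s_at the differences were 0.17 ± 0.08 and 0.18 ± 0.12, the groups overlapped, and neither was called. Under mix 2 the values of the 4 were 0.61, 0.43, -0.02 and 0.09. The 3 remaining COL6A1 probe sets were under the filter, with means of 3.93 to 4.75.

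In COL1A1 the gap between 217430_x_at and the brightest probe set was -2.40 under mix 1 and -1.53 under mix 2. For COL5A1 probe set 212488_at read a change 1.04 larger than the brightest under mix 1 and 0.66 smaller under mix 2 (-0.66). COL12A1 was read less deeply lower by 231766_s_at, by 0.69 and 0.76. In COL4A2 neither comparison passed the threshold (differences of -0.11 and -0.21). Where each probe set lies along its transcript was not analysed here.

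**Figure D3:**
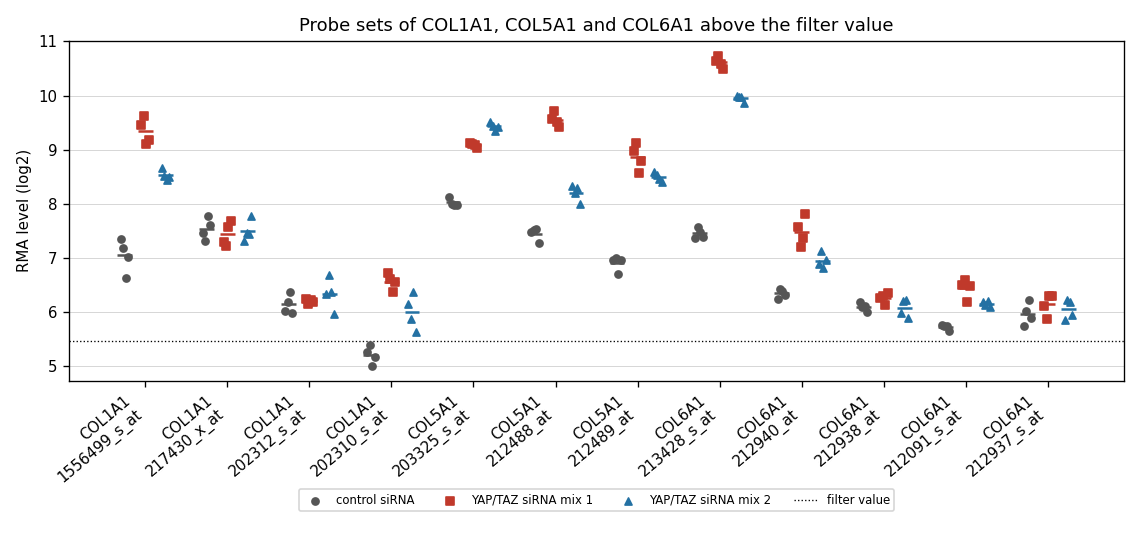
RMA level (log2, vertical axis) on the 12 arrays for the probe sets of COL1A1, COL5A1 and COL6A1 above the filter. Points are single arrays, short bars are means of 4 arrays, and the dotted line is the filter value of 5.46. In COL1A1 1556499_s_at separates the 3 groups and 217430_x_at does not, and in COL5A1 the order of the mixes turns between 203325_s_at and 212488_at.

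Between the mixes, 2 of the 9 tested collagen genes were higher under mix 2 (COL5A1 and COL12A1), 4 were lower (COL1A1, COL4A1, COL6A1 and COL13A1) and 3 were not called (COL4A2, COL6A2 and COL6A3). Over all genes 52.5% were called between the mixes, 28.0% higher and 24.5% lower, so 6 of 9 is a share near the background. The differences ran from -0.82 to 0.39, with a median of -0.14 beside 0.03 over all genes. By probe set, 3 were higher, 12 lower and 8 not called of 23, beside 51.3% of all probe sets called, 25.8% higher and 25.6% lower. COL12A1, lower than control under both mixes, was the less reduced under mix 2. COL1A1, COL4A1, COL6A1 and COL13A1, higher than control under both, were the less raised under mix 2. For COL5A1 the direction depends on the probe set, as given with its values.

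The other collagen genes give the rest of the family. Of the 33, 13 were above the filter, and 5 of these were higher and 1 lower than control under each mix. Over all genes 66.4% were called with mix 1 and 67.9% with mix 2, so the share of the 13 was under the background. Their median difference was 0.09 under both. COL4A5, a type IV chain of kidney and other basement membranes, rose by 2.21 ± 0.12 with mix 1 and 2.78 ± 0.12 with mix 2 on 213110_s_at. Its other probe set (234387_at) was under the filter and flat, with means of 3.54 in control, 3.56 with mix 1 and 3.62 with mix 2. COL9A3, a type IX chain best known from cartilage, was counted among the 5 but passed the filter only through the knockdown groups. Its means were 4.59 in control, 6.21 with mix 1 and 5.91 with mix 2, so no difference or p is given for it.

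COL18A1, the basement-membrane collagen from which endostatin is cut, rose by 1.59 ± 0.09 with mix 1 and by 0.43 ± 0.09 with mix 2. It differed between the mixes by -1.17 ± 0.09 (adjusted p = 4.53e-08). A second COL18A1 probe set gave 1.19 and 0.63. COL7A1, the anchoring fibril collagen of skin, rose by 0.79 and 0.60, and by 1.34 and 1.18 on its other probe set. COL16A1 rose by 0.48 and 0.48, with mix 2 overlapping control. COL8A1, a short-chain collagen, was bright and fell by 0.22 and 0.21. On its other tested probe set it fell by 0.71 and 0.33. Over the whole family of 43 genes, 22 were tested and 14 were called in each comparison with control, 12 higher and 2 lower, a share near the background.

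Some collagens under the filter had unlike levels in the groups. They were picked after their values were seen, so their levels are given with no difference and no test. COL4A6, which lies head to head with COL4A5 on chromosome X, had means of 3.85 in control, 4.94 with mix 1 and 6.83 with mix 2. The arrays of the 3 groups did not overlap on that probe set, while its other probe sets stayed between 3.35 and 4.12. COL4A4, head to head with COL4A3 on chromosome 2, had 4.46, 5.21 and 5.90. COL4A3 had 4.39, 4.27 and 4.18 on its brightest probe set, and 3.34, 3.46 and 4.69 on another (222073_at), where mix 2 lay above the other groups.

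COL15A1, a basement-membrane collagen related to COL18A1, was higher with mix 1 than in either other group. Its means were 3.69 in control, 5.72 with mix 1 and 3.35 with mix 2. The fibril collagens COL11A1 (4.80, 4.63 and 5.72) and COL3A1 had their highest means with mix 2, though for COL3A1 2 of the dimmer probe sets did not.

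**Figure D4:**
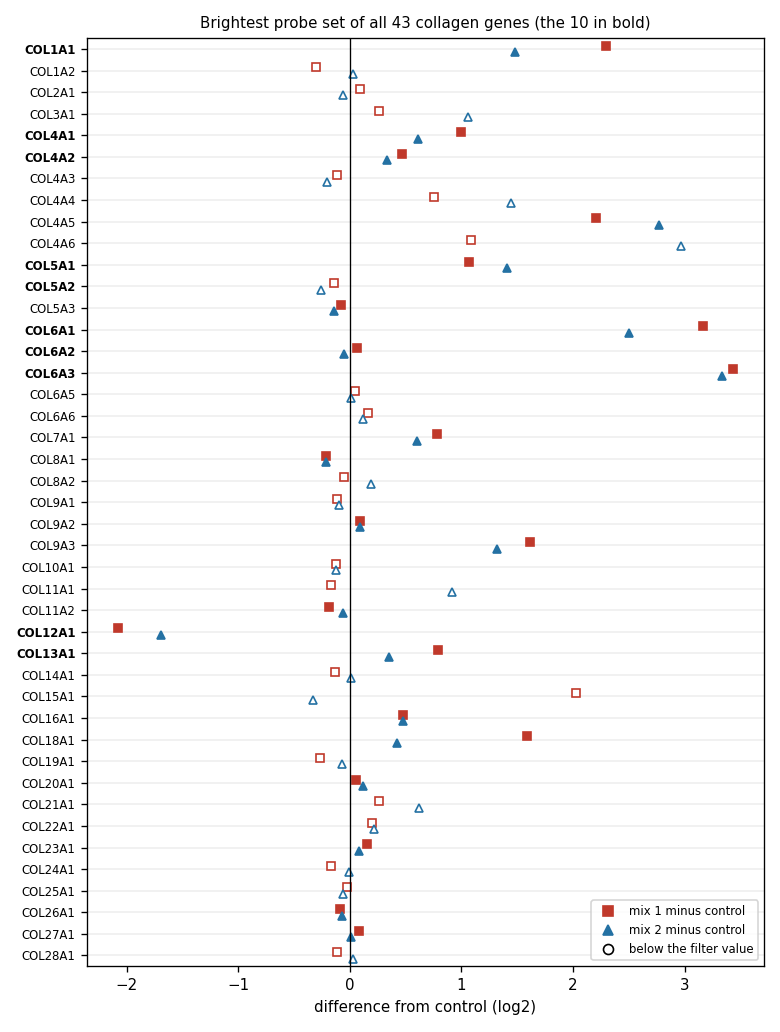
Difference from control (log2, horizontal axis) of the brightest probe set of all 43 collagen genes, in order of type, under mix 1 (squares) and mix 2 (triangles). Names of the 10 genes are bold, and open symbols are genes under the filter. COL6A3 (3.44 and 3.33) and COL12A1 (-2.08 and -1.69) mark the ends. Genes for which the text gives no difference are plotted as a description only.

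The lists below hold genes linked to collagen other than its chains. They were chosen with earlier results of these data known, so their counts and medians are a description. Over all genes 34.4% were higher and 31.9% lower with mix 1, and 36.3% higher and 31.6% lower with mix 2. Of 18 genes that modify and fold collagen chains inside the cell, 11 were higher and 3 lower than control with mix 1, and 10 were higher and 4 lower with mix 2 (all genes called 66.4% and 67.9%). The list's median differences were 0.39 and 0.20, beside 0.01 and 0.03 over all genes. PLOD1, a lysyl hydroxylase, rose by 1.10 and 0.79, and P3H4, which helps lysine hydroxylation, rose by 1.38 and 2.03. P4HA1, the catalytic subunit of prolyl hydroxylase, rose by 1.27 and 0.26. The prolyl hydroxylase P3H2 fell by 1.05 and 0.66, and TMEM38B, an ion channel of the endoplasmic reticulum, fell by 0.85 and 1.96.

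Several genes of that list split by mix, and they are named after their values were seen. PLOD2, the lysyl hydroxylase of the collagen ends, was 1.16 above control with mix 1 and fell by 1.29 with mix 2. Between the mixes it differed by -2.45, given with no p-value since the split was the reason for naming it. The prolyl isomerase PPIB rose by 0.41 with mix 1 and fell by 1.08 with mix 2. P4HA2, the sister of P4HA1, was at 0.00 with mix 1 and rose by 1.43 with mix 2, with 1.43 between the mixes.

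Of 12 genes for export of collagen from the endoplasmic reticulum, 8 were higher and 2 lower with mix 1, and 9 higher and 1 lower with mix 2 (medians 0.47 and 0.57, all genes called 66.4% and 67.9%). The cargo receptors MIA3 (0.83 and 0.90) and MIA2 (1.45 and 1.16) and the transcription factor CREB3L1 (1.34 and 1.78) rose under both mixes. Of 20 genes for propeptide removal, cross-linking and assembly, 7 were higher and 5 lower with mix 1, and 10 higher and 4 lower with mix 2 (medians -0.01 and 0.14). With 66.4% and 67.9% of all genes called, those shares were near or under the background. Fibronectin (FN1, 1.72 and 1.39), on which collagen fibrils form, fibromodulin (FMOD, 1.76 and 1.53) and peroxidasin (PXDN, 1.31 and 0.90), which cross-links type IV collagen, rose. PCOLCE (-0.60 and -0.66) and PCOLCE2 (-1.06 and -0.50), which speed removal of the propeptide, and THBS2 (-0.55 and -0.22) fell.

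Among 12 collagen receptors, 9 were higher and 1 lower with mix 1, and 8 higher and 2 lower with mix 2 (medians 0.65 and 0.61, all genes called 66.4% and 67.9%). The integrin chains ITGA1 (3.63 and 3.09) and ITGA10 (3.81 and 4.88) and the uptake receptor MRC2 (1.13 and 1.51) rose. ADGRG6, an adhesion receptor that binds type IV collagen, fell by 0.55 and 0.24. ADGRG1, an adhesion receptor picked after its values were seen, was 2.12 above control with mix 1 and 0.78 below it with mix 2 (-0.78).

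Of 12 genes for collagen breakdown and its inhibitors, 11 were higher with mix 1 and 10 with mix 2, and 0 were lower (medians 1.39 and 1.13). The list holds proteases and the tissue inhibitors that block them. The protease MMP9 was called under neither mix (-0.21 and -0.14), MMP15 was not called with mix 2 (0.03), and MMP2, MMP3, MMP8, MMP13 and FAP were not tested. The membrane protease MMP16 rose by 3.59 and 1.23, and the inhibitors TIMP3 and TIMP4 rose by 2.10 and 1.77 and by 3.08 and 2.62. Over all genes 34.4% were higher with mix 1 and 36.3% with mix 2.

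Of 22 factors known to act on collagen promoters, 13 were higher and 3 lower with mix 1, and 8 higher and 6 lower with mix 2 (medians 0.37 and 0.03), near the 66.4% and 67.9% called over all genes. The TGF-beta receptor TGFBR2 (1.44 and 1.44), SMAD7 (2.15 and 1.17), which inhibits TGF-beta signalling, and KLF4 (1.43 and 1.37) rose. TEAD4 (-0.91 and -0.52) and the receptor TGFBR1 (-0.44 and -0.66) fell. Between the mixes 4 of the 22 were higher and 11 lower under mix 2, beside 28.0% and 24.5% of all genes.

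Markers of other cells were checked beside the collagen values. Endothelial markers above the filter numbered 3 of 8, with a mean level of 4.87 to 5.04 per array in control, 5.06 to 5.21 with mix 1 and 5.13 to 5.24 with mix 2. CDH5, KDR, TEK, EMCN and ERG were under the filter. PECAM1 (6.54, 8.62 and 7.88) carried the higher mean, while VWF (5.57, 5.52 and 5.60) and CLDN5 were called under neither mix and KDR was at 5.30, 4.56 and 5.30. Of 5 leukocyte markers with a probe set 4 were above it, and the mean level went from 5.06 to 5.30 in control to 6.16 to 6.21 with mix 1 and 6.23 to 6.42 with mix 2. LYZ (4.96, 9.14 and 9.18) and CD14 (5.15, 6.26 and 6.39) carried that change, while CD3E (-0.10 and -0.11) and ITGAM (-0.02 and -0.19) were called under neither mix. LYZ and CD14 were under the filter on every control array and passed it only through the knockdown groups. PTPRC, which marks all white blood cells, was under the filter at 4.04, 3.80 and 4.47. The part of such RNA in the collagen differences was not tested.

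For 5 of the genes the closest patterns among all other tested genes were listed, by the root mean square distance of the differences from control over the 8 knockdown arrays. Closest to COL6A1 were CSF1 and SLC2A3 (0.08 each) and DEPP1 (0.13). Closest to COL6A3 were CAPN8 (0.20), ABCC3 (0.22) and JUP (0.24). For COL1A1 they were RHOB (0.13), LGR5 (0.14) and TP53INP2 (0.17). COL5A1 was nearest to MARF1 (0.07), CRYBG1 (0.08) and CLCN3 (0.08), and COL12A1 to DIAPH3, FAM83D and TMPO (0.18 each). The distances are in log2 units and describe these 8 arrays, which share their controls, with no test.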

How the data were processed

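Total RNA of 12 cultures was labelled and hybridised to 1-colour arrays per the labels' protocols. The authors deposited 1 table of log2 values with 54675 probe sets. Per the submitters' processing notes it came from RMA, and the software used for that step is not given in the sources used here. RMA gives all arrays about the same distribution, so a shift of all genes together would not be seen. No scanner files were used here.

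Of the probe sets, 41091 had exactly 1 gene symbol after control probe sets were left out, and 24650 of these, naming 13225 genes, were above the filter. Symbols were updated by gene ID for 41043. A model with a mean for each of the 3 groups was fitted to the 12 arrays with limma 3.58.1 in R 4.3.3 (lmFit, then eBayes with its defaults), leaving 9 residual degrees of freedom. Its two-sided p-values were adjusted after Benjamini and Hochberg, over the 24650 probe sets of a comparison, with a threshold of 0.05. The fit was tested on simulated data. Errors of differences are standard errors of this fit, and errors of means are SDs. The members and gene lists were chosen with earlier results of these data known.

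Named were all probe sets of the 10 genes, YAP1 and WWTR1, other collagens called against control, up to 3 genes per direction of each list that were called the same way under both mixes, and the 3 nearest patterns of each of the 10 genes with a difference of at least 1 log2. Other collagens and listed genes were chosen after their values were seen and are marked so, apart from breakdown genes given as not called or not tested. Single markers of cell types are also outside this rule and carry no mark. Promoter sequences are RefSeq's on GRCh38.p14; for COL1A1, COL5A2 and COL6A1 none is shown.

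The replicate letters were checked for pairing. Deviations of same-letter arrays between mix 1 and control correlated at 0.382, 0.352, 0.427 and 0.429 for A to D, all above 0.1. The values, not the labels, thus point to a pairing there, though for B another control letter correlated more. The main fit and the permutation tests did not use this pairing, so their mix 1 errors and p-values treat the groups as unpaired. Only the replicate block among the alternatives used it. Between mix 2 and control the correlations were 0.07, 0.00, 0.05 and 0.10, and between the mixes 0.214, -0.093, 0.176 and 0.087, so the letters were not taken as a pairing there. Alternatives were no filter or a 60th-percentile filter, only the groups compared, a replicate block, median centring, quantile normalization, 1 probe set per gene in the fit, no shared probe sets, a size threshold of 1 log2, leaving out each replicate and, added after seeing the data, the probe set brightest in control.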

Additional observations from a re-analysis of the deposited data

Results flagged for a closer look

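Of 246 groups of 4 arrays checked, 7 held an array that stood apart from the other 3 by Dixon's test. Chance gives such an array in about 1 of 20 groups. Among the collagen probe sets, replicate D of mix 2 was at 10.81 on the COL4A2 probe set 211964_at, where the others were at 11.00 to 11.03. The same array was at 9.87 on the COL6A1 probe set 213428_s_at, where the others were at 9.97 to 9.99. On COL5A1, control replicate D was at 7.27 on 212488_at (others 7.48 to 7.52) and control replicate C at 6.70 on 212489_at (others 6.95 to 6.99).

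Among the listed genes, FN1 was at 12.64 in replicate C of mix 2 (others 12.66), P3H2 at 9.57 in replicate D of mix 1 (others 9.54) and TIMP4 at 9.56 in replicate A of mix 1 (others 9.44 to 9.46). These last 3 gaps are small in log2 units.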

How the results depend on the processing

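The counts of called collagen genes among the 10 stayed at 8, 8 and 6 for mix 1 and mix 2 against control and mix 2 against mix 1 when any replicate was left out and with the replicate block. With a size threshold of 1 log2 they were 5, 5 and 0 (limma). The whole family went from 14, 14 and 8 to 8, 7 and 1, and the pathway lists from 73, 72 and 61 to 29, 25 and 11. Leaving out a replicate gave 8 to 9 for the family between the mixes, and 70 to 74, 67 to 72 and 55 to 63 for the lists. With the replicate block the family counts were 15, 14 and 8 and the lists 76, 72 and 67, which moved no count by over 1.5 times. Without shared probe sets the family count was 9 for mix 2 against control and 5 between the mixes, and with no filter it was 15 between the mixes; these settings test other numbers of genes. Of the 28 comparisons of probe sets above the filter, 20 passed the threshold, and 19 to 21 did with a replicate left out. Those counts are a description, since the reference probe set was picked with the knockdown arrays included.

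Single genes reversed in few cases. COL5A1 between the mixes was -1.36 without shared probe sets (adjusted p = 1.02e-08). COL6A2 under mix 1, not called in any of these fits, was -0.0117 without control replicate D and -0.0408 without mix 1 replicate C, in a range of -0.0408 to 0.1558 over all replicates left out. Read by the probe set brightest in control, COL1A1 was -0.10 with mix 1 and -0.045 with mix 2 against control, and was called under neither. Between the mixes it was 0.055 (limma adjusted p = 0.749). Without shared probe sets COL1A1 and COL13A1 have no probe set and COL6A2 none above the filter. The number of arrays and dim signals near background limit what can be seen for COL5A2 and COL6A2.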
